A study of Mus musculus with 2 samples.

Results

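The genes described here act on collagen chains inside the endoplasmic reticulum (ER): subunits of collagen prolyl 4-hydroxylase (P4ha1, P4ha2, P4ha3 and P4hb), Crtap of the prolyl 3-hydroxylase complex, and the folding chaperones Serpinh1, Fkbp7, Fkbp9, Fkbp10 and Fkbp14. They were chosen by name, with earlier results of these data known, 10 genes in all. Of these, 9 were among the 19938 genes with a probe set of their own on the array, with exactly 1 each. Fkbp10 was named by none in the platform annotation used and was not analysed here. RNA was labelled as coming from cells of healing skin of a TCF reporter mouse, a line read here as marking cells in which TCF factors, which carry Wnt signals with beta-catenin, are active. The cells were labelled B-Gal positive or B-Gal negative, and both groups were taken 1 week after wounding, from tissue labelled skin scar tissue. Genotype, tissue and time were thus the same in both groups, with age, number of mice and the way of separating cells not given in the sources used here. For RNA extraction, the design text names microdissected and homogenised wound skin, with how this yields separate B-Gal positive and B-Gal negative samples also not given, and the groups are called by their labels. Those labels could not be checked against the reporter, which no probe set in the annotation names. Each group had 1 Affymetrix mouse gene array and no replicate, so a difference has no error and no test, and the number of arrays limits the precision.

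Collagen chains are hydroxylated on proline as they enter the ER, and the resulting 4-hydroxyproline keeps the triple helix stable at body temperature. The enzyme joins catalytic alpha subunits to a beta subunit that is also the general protein disulfide isomerase. A second complex adds 3-hydroxyproline at a few sites, prolyl isomerases of the FKBP and cyclophilin families speed chain folding, and the chaperone HSP47 holds the finished helix until export. In a skin wound, fibroblasts and myofibroblasts are the main makers of the collagen that goes through this route.

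Values of all 9 measured genes were lower in B-Gal positive cells than in B-Gal negative cells. The differences were unequal in size. P4ha2, P4ha3, Serpinh1, Fkbp7, Fkbp9 and Fkbp14 were at least 10.15-fold lower, with P4ha3 taken against the floor given below. Crtap was 4.88-fold lower, and P4ha1 and P4hb were lower by 2.04-fold and 1.81-fold. In RNA of many cells, fewer cells of a type cannot be told apart from less RNA per cell. A gene counted as expressed when at least 1 array lay above a floor of 5.59 on the log2 scale, set at the 95th percentile over olfactory and vomeronasal receptors, genes with little known use in skin. All 9 measured genes passed it, P4ha3 only through its B-Gal negative value. By a 2-fold threshold, 8 of the 9 were lower and 0 were higher, also when each value below the floor was set to the floor. On the same deposited values, 12.7% of all 13786 expressed genes were at least 2-fold lower and 9.92% at least 2-fold higher, and these shares were 11.6% and 9.55% when each value below the floor was set to the floor. By a 4-fold threshold 7 of the 9 were lower, against 5.72% of expressed genes. The median difference of the 9 genes was -3.82 on the log2 scale, and that of all expressed genes was 0.06. Among the 6786 expressed genes whose mean of both arrays was at or above the lowest mean of these genes, 11.6% were at least 2-fold lower. The differences of the 1190 receptor genes, a gauge of how far dim probe sets differ between these arrays, had a median of 0.28 and an SD of 0.37 over genes.

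**Figure D1:**
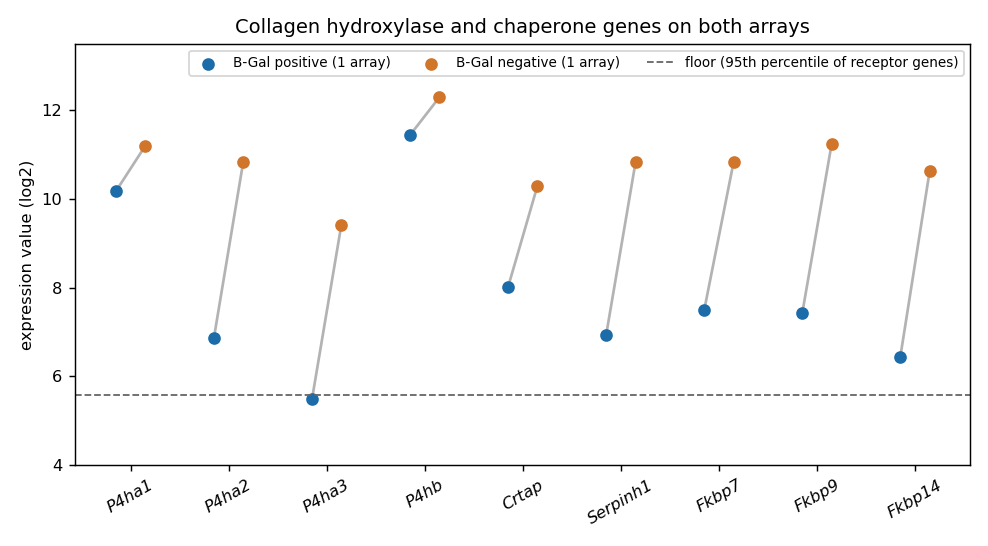
Log2 expression value (vertical axis) of each measured gene on the B-Gal positive array (blue, left) and the B-Gal negative array (orange, right), 1 array each, with a grey line joining the values of a gene. The dashed line is the floor at 5.59. Every gene was lower on the B-Gal positive array, P4ha3 lay under the floor there, and the lines of P4ha1 and P4hb are the shortest.

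The catalytic alpha subunits did not share a single size of difference. P4ha1, the alpha subunit used by most cell types, had a log2 value of 10.17 in B-Gal positive cells and 11.20 in B-Gal negative cells. P4ha2, the alpha subunit of the second enzyme form, had 6.86 in B-Gal positive cells and 10.85 in B-Gal negative cells. P4ha3, the third alpha subunit, had 5.48 in B-Gal positive cells, under the floor, and 9.42 in B-Gal negative cells. P4ha1 was thus well above the floor on both arrays, P4ha2 stood 1.27 above it in B-Gal positive cells, and P4ha3 was not above it. As differences on the log2 scale, P4ha1 was at -1.03 and P4ha2 at -3.99, a gap of 2.96 between the paralogs. P4ha3 was at least 14.2-fold lower when its B-Gal positive value was set to the floor, and P4ha2 was 15.8-fold lower. With a stricter floor of 6.27, the 99th percentile of the receptors, the bound for P4ha3 was 8.85-fold. P4ha1 lay just past the 2-fold threshold, and 12.4% of expressed genes had a lower difference. Only 0.566% of expressed genes had a lower difference than P4ha2.

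P4hb encodes the beta subunit, which keeps the alpha subunits soluble and in the ER and, as protein disulfide isomerase, serves secreted proteins of every cell. Its log2 value was 11.44 in B-Gal positive cells and 12.30 in B-Gal negative cells. Its difference of -0.86 was the smallest of the 9 genes and did not reach 2-fold. The difference of P4ha1 minus that of P4hb was -0.17 on the log2 scale, and that of P4ha2 minus that of P4hb, for the second enzyme form, was -3.13.

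The promoters of P4ha1 and P4ha2, whose differences were unlike each other, are shown beside those of P4hb, the gene with the smallest difference, and Serpinh1, the helix chaperone with a large one. Each window is 300 bases, 250 before and 50 after the transcription start, from RefSeq on the build GRCm38.p6, written along the gene. Capitals mark the letters ACGTG or their reverse complement, which form the core of sites for hypoxia-inducible and ER stress factors.
P4ha1, chr10:59323046-59323345, plus strand: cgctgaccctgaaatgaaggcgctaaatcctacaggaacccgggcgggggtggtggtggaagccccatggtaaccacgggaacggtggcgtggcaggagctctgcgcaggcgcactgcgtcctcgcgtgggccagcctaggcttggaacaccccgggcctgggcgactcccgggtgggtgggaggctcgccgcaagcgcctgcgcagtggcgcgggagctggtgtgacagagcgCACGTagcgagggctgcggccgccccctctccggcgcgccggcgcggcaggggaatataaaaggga
P4ha2, chr11:54100674-54100973, plus strand: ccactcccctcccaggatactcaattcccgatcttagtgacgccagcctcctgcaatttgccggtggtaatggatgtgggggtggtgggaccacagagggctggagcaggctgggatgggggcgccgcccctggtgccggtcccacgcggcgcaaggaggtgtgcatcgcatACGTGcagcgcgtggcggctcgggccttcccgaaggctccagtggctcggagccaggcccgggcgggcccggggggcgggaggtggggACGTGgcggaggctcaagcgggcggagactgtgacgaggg
P4hb, chr11:120573204-120573503, minus strand: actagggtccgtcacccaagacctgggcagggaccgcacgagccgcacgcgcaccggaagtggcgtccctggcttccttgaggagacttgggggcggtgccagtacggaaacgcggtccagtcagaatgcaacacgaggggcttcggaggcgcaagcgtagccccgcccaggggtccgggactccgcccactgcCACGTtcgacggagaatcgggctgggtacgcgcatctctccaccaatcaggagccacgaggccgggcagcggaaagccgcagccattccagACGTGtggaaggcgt
Serpinh1, chr7:99353190-99353489, minus strand: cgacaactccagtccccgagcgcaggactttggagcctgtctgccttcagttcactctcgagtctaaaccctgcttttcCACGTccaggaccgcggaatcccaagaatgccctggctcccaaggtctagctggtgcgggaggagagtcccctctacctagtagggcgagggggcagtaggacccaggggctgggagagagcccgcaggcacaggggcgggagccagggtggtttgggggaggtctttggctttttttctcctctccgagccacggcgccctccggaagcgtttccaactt
All 9 measured genes had a window in the RefSeq table, Fkbp14 with 2 of them. On both strands, ACGTG was found in windows of 6 of the 9 genes (P4ha1, P4ha2, P4hb, Serpinh1, Fkbp9 and Fkbp14) and in 19.6% of all 32851 windows. It was in genes with a small difference and in genes with a large one. The letters CCACG, which share the stretch CACG with the reverse complement of ACGTG, were found for 8 of the 9 genes, in 32.8% of all windows and in 57.0% of the 7575 windows at least as rich in G and C as the median window of these genes. CCAAT was found for 3 genes, in 37.4% of all windows and in 29.9% of the windows rich in G and C. TATAAA was found for 2 genes, in 13.6% of all windows and in 2.77% of the windows rich in G and C. Counted from the transcription start, its first base was at 40 in P4ha1, after the start, and at -136 in Crtap. The longer ER stress element, CCAAT and CCACG on 1 strand with 9 bases between, was searched after the other letters had been counted. It was found in 0 of the 10 windows and in 0.119% of all windows. The windows of these genes had a median of 62.7% G and C, against 52.7% for all windows, and among windows at or above 62.7% the share with ACGTG was 26.6%. A match of letters is a description and not a binding site.

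Crtap encodes the cartilage-associated protein, the scaffold of the complex that 3-hydroxylates proline and isomerises prolyl bonds. It had a log2 value of 8.01 in B-Gal positive cells and 10.30 in B-Gal negative cells, a difference of -2.29. Crtap lay between the group with small differences and the group with large ones. All 5 genes listed as its partners were at least 2-fold lower, with a median of -2.51. P3h1, the catalytic subunit of the Crtap complex, was 9.22-fold lower (log2 value 6.68 in B-Gal positive cells and 9.88 in B-Gal negative cells). Ppib, the cyclophilin B of the same complex, was 2.20-fold lower (10.90 in B-Gal positive cells and 12.04 in B-Gal negative cells). Within this complex, the hydroxylase and scaffold genes lay further from 0 than the isomerase gene. P3h3 and P3h4, whose proteins act together on collagen lysine modification in mouse skin, were lower by 5.69-fold and 12.2-fold, and P3h2, a 3-hydroxylase tied to basement membrane collagen, by 2.17-fold. The B-Gal positive value of P3h4, 5.61, lay only 0.02 above the floor, and that of P3h2 0.39 above it. Background thus limits both of these folds.

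Serpinh1 encodes HSP47, a serpin without protease inhibitor activity that binds the folded procollagen helix. It had a log2 value of 6.93 in B-Gal positive cells and 10.83 in B-Gal negative cells. The gene was 14.9-fold lower, and 0.725% of expressed genes had a lower difference. Its B-Gal positive value stood 1.34 above the floor.

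The FKBP genes of this group encode prolyl isomerases that stay in the ER, with isomerase domains and, in these members, calcium-binding motifs. Fkbp14, which encodes FKBP22 and whose human counterpart is mutated in a form of Ehlers-Danlos syndrome, had a log2 value of 6.44 in B-Gal positive cells and 10.64 in B-Gal negative cells. Fkbp9, which encodes an isomerase with several FKBP domains, had 7.43 in B-Gal positive cells and 11.25 in B-Gal negative cells. Fkbp7, which encodes FKBP23, a binding partner of the ER chaperone BiP in the mouse, had 7.49 in B-Gal positive cells and 10.84 in B-Gal negative cells. These genes were close to one another in difference, within 0.86 on the log2 scale. Fkbp14 was 18.4-fold lower, and on deposited values 0.283% of expressed genes had a lower difference. Fkbp9 was 14.1-fold and Fkbp7 10.2-fold lower.

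**Figure D2:**
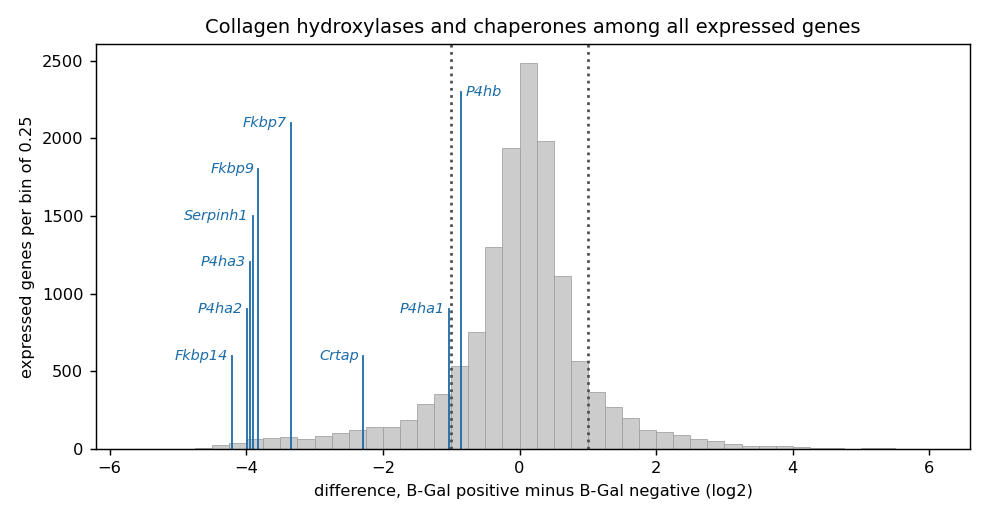
Number of expressed genes (vertical axis) by difference in log2 value, B-Gal positive minus B-Gal negative, in bins of 0.25, for 13786 genes and 1 array per group. Blue lines mark the 9 measured genes at heights chosen for legibility, and dotted lines mark 2-fold. Fkbp14, P4ha2, P4ha3, Serpinh1, Fkbp9 and Fkbp7 lie in the lower tail, while P4ha1 and P4hb lie beside the 2-fold line.

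The other FKBP genes differed in both directions. Of 10 expressed ones among 13 listed, 2 were at least 2-fold lower and 1 was at least 2-fold higher, with a median of -0.04, against 0.10 when genes under the floor were kept. Fkbp11, another FKBP of the secretory route, was 5.21-fold lower, and Fkbp5, a partner of steroid receptor complexes, 2.21-fold lower. The B-Gal positive value of Fkbp11, 5.64, lay only 0.06 above the floor. Fkbp15 was 2.75-fold higher. Fkbp1a, the receptor of the drugs FK506 and rapamycin in the cytosol, differed by -0.74, and the ER isomerase gene Fkbp2 by 0.10. The Fkbp7, Fkbp9 and Fkbp14 differences, from -4.20 to -3.34, lay below all 10 of these values.

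General chaperones of the ER had a median difference of -0.45. Of 20 genes, 2 were at least 2-fold lower and 1 was at least 2-fold higher, shares no larger than those over all expressed genes (12.7% and 9.92%). Hspa5, which encodes BiP, had log2 values of 12.24 in B-Gal positive cells and 12.31 in B-Gal negative cells. The lectin chaperone genes Calr and Canx differed by -0.21 and 0.12, and Hsp90b1, the ER form of HSP90, by -0.55. Pdia3, a disulfide isomerase of glycoproteins, differed by -0.61. The disulfide isomerase family members Pdia5 and Txndc5 were the lower ones, by 14.1-fold and 5.06-fold, and the oxidase gene Ero1b was 3.33-fold higher. P4hb, itself of this family, differed by -0.86, and of the 20 genes Pdia5, Txndc5 and Manf, an ER stress-induced gene, had lower differences. Other prolyl hydroxylases, which act on proteins other than collagen, did not reach 2-fold in any of 6 cases. The genes of the oxygen-sensing hydroxylases Egln1, Egln2 and Egln3 differed by 0.15, -0.03 and 0.59, and that of the ER membrane hydroxylase P4htm by -0.32.

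Genes that act on collagen before and after these steps were also mostly lower in B-Gal positive cells. The list for lysine modification of collagen held 5 expressed genes, including Tmem38b, which encodes an ER cation channel and not an enzyme acting on lysine. Tmem38b, at 1.05, was the only one of the 5 with a higher value in B-Gal positive cells. Plod2, the lysyl hydroxylase of telopeptides, had a difference of -4.73, and no other gene of this list fell by 2-fold. The lysyl hydroxylase genes Plod1 and Plod3 differed by -0.83 and -0.78, so this family, like the P4ha family, held paralogs of unequal difference. Of 9 expressed export genes, 7 were at least 2-fold lower and 0 higher (median -2.07), among them Creb3l1, a transcription factor that drives collagen secretion genes (14.6-fold), and the COPII coat genes Sec23a (5.04-fold) and Sec24d (4.25-fold). Kdelr3, a receptor that returns ER proteins bearing a retrieval signal, differed by -4.60. Of 8 processing genes, 7 were at least 2-fold lower (median -2.76), including the procollagen C-proteinase gene Bmp1 and that of its enhancer Pcolce, at -4.11 and -4.10. The matrix protein gene Sparc and the N-proteinase gene Adamts14 were 7.15-fold and 7.10-fold lower. In B-Gal positive cells Sparc was well above the floor, while Adamts14 lay 0.13 and Plod2 0.31 above it, so background limits the folds of these last genes. The single higher gene, named after its value was seen, was the proprotein convertase gene Furin (2.18-fold).

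**Figure D3:**
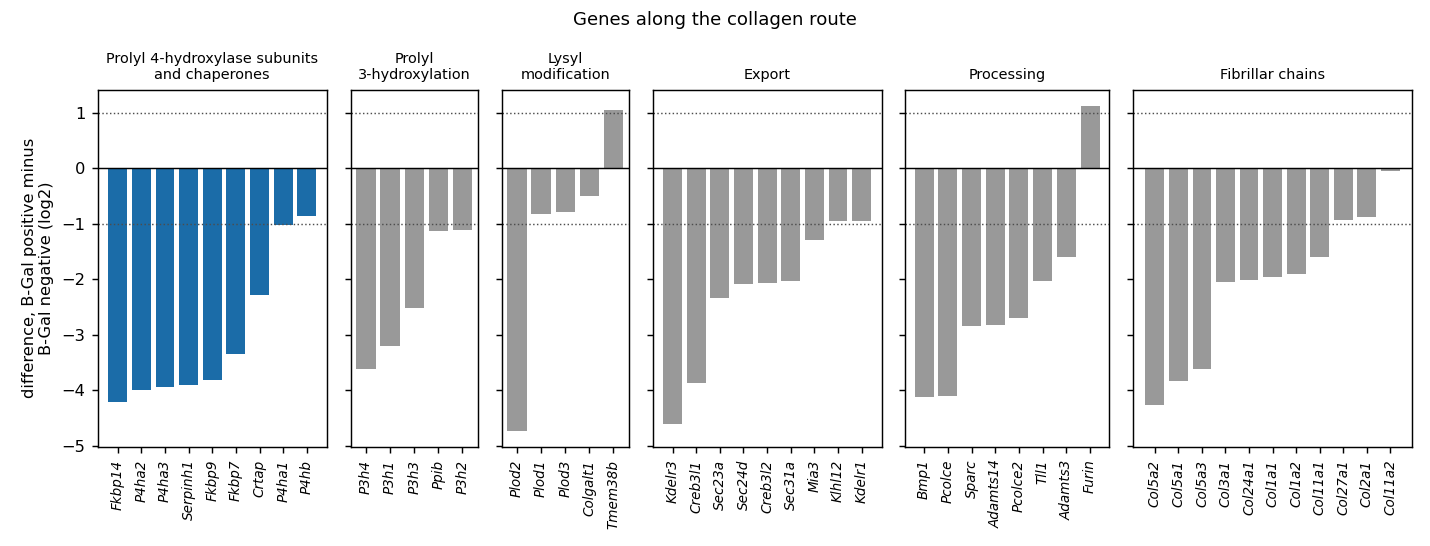
Difference in log2 value, B-Gal positive minus B-Gal negative (vertical axis), of each expressed gene along the collagen route, 1 array per group, with the 9 measured hydroxylase and chaperone genes in blue. Dotted lines mark 2-fold. Bars go below the lower line for 8 of the 9 blue genes and above the upper line only for Tmem38b and Furin among the genes drawn.

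The client chains of these enzymes were lower as well. All 11 fibrillar collagen chain genes were lower in B-Gal positive cells, with a median of -1.96, and 8 reached 2-fold. The chains of collagen V had the largest differences: Col5a2 was 19.1-fold, Col5a1 14.2-fold and Col5a3 12.3-fold lower. Col1a1, Col1a2 and Col3a1, the main chains of dermal collagen, were lower by 3.88-fold, 3.76-fold and 4.12-fold. Col1a2 had log2 values of 12.04 in B-Gal positive cells and 13.94 in B-Gal negative cells, where the highest value of the whole array was 14.23. How far values near the top of the scale compress a difference was not tested, for these genes or for P4hb and Ppib. Prolines are also hydroxylated in proteins outside the collagen family that hold a collagen-like stretch. Of 15 such genes expressed among 20 listed, 5 were at least 2-fold higher and 4 at least 2-fold lower on deposited values. The lower count was 3 when each value below the floor was set to it. The median of the 15 was 0.24. The complement genes C1qa, C1qb and C1qc differed by 4.99, 4.70 and 5.25, and the scavenger receptor gene Msr1 was 11.7-fold higher. Among the lower genes, Scara3, Colec12 and Scara5, named after their values were seen, differed by -3.29, -2.59 and -2.34. B-Gal positive cells had higher values for C1q chains together with lower values for all 9 measured genes.

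Markers of several cell types also differed between the groups, in both directions. All 12 fibroblast markers were at least 2-fold lower in B-Gal positive cells, with a median of -3.88. Their summed level on the linear scale was 3677 in B-Gal positive cells and 45059 in B-Gal negative cells, in array signal units. None of the 12 was under the floor on either array, and Pdgfra, a receptor gene of fibroblasts, had a log2 value of 7.45 in B-Gal positive cells. All 12 macrophage markers were at least 2-fold higher, with summed levels of 39967 in B-Gal positive cells and 3864 in B-Gal negative cells, and 2 of them, Cd163 and Ms4a7, did not exceed the floor in B-Gal negative cells. Of 10 pericyte and smooth muscle markers, 9 were at least 2-fold lower (median -2.42), with summed levels of 1080 in B-Gal positive cells and 10996 in B-Gal negative cells. Of 10 endothelial markers, all with lower values, 8 were at least 2-fold lower (median -1.64), with 868 in B-Gal positive cells and 2846 in B-Gal negative cells. Keratinocyte markers lay near the floor on both arrays, between 4.46 and 7.11, and 6 of 10 counted as expressed. Of these, 2 were at least 2-fold lower and 0 higher, Krt5 by at least 2.88-fold and Krt14 by 2.17-fold. The differences of P4ha2, Serpinh1, Fkbp7, Fkbp9 and Fkbp14 lay within the range of the fibroblast markers, -4.51 to -2.75. Those of Crtap, P4ha1 and P4hb lay outside it, nearer to 0. The wider range of the pericyte and smooth muscle markers, -4.29 to -0.70, held the differences of all these genes. P4ha3, known only as a bound, could not be placed. The part of cell composition in these differences was not tested.

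**Figure D4:**
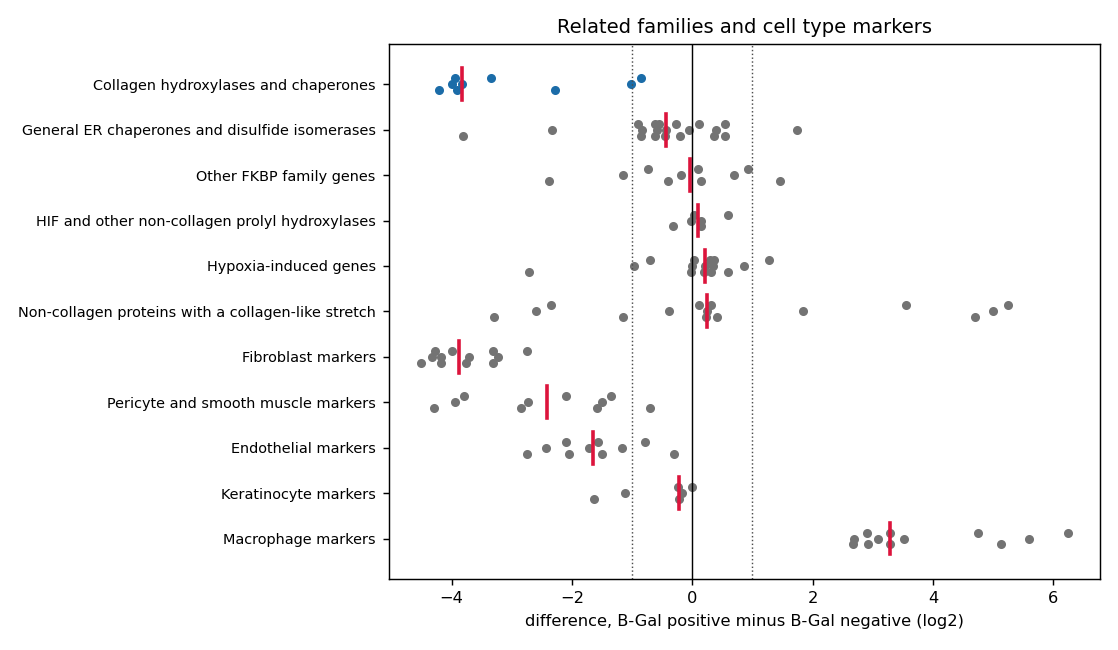
Difference in log2 value, B-Gal positive minus B-Gal negative (horizontal axis), of each expressed gene (points) in the hydroxylase and chaperone group, in related families and in cell type marker lists, 1 array per group, with red bars at list medians. Dotted lines mark 2-fold. The group's median of -3.82 lies beside that of fibroblast markers, -3.88, while general ER chaperones, other FKBP genes and other prolyl hydroxylases centre between -0.45 and 0.09.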

How the data were processed

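Per the labels, biotin-labelled total RNA was measured on Affymetrix Mouse Gene ST arrays, 1 for each group of cells. Values in the deposited table, 1 for each probe set on each array, were taken as log2 expression. The log2 base was inferred from the values (1.16 to 14.8), and folds depend on it. Partek is the software named in the submitters' processing notes, with summarization, background correction and normalization not given in the sources used here. Array medians were 6.16 for B-Gal positive and 6.18 for B-Gal negative cells.

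Of 28853 probe sets, 21789 named 1 gene in the platform annotation, 1621 several and 5443 were not listed. Symbols were updated by gene ID with RefSeq genes of GRCm38.p6, which matched 21698. For the 999 genes with several probe sets, that with the highest mean over both arrays was kept. Each difference is B-Gal positive minus B-Gal negative, on the log2 scale, with no added scaling. The floor was the 95th percentile of 1190 olfactory and vomeronasal receptor genes, and a printed fold with 1 value under it was taken against it. Counts and medians used deposited values except where said. No p-value was computed.

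The genes described and the 15 comparison lists (170 entries, 4 with no probe set naming the gene alone) were chosen with earlier results of these data known. The text names all 10 members, of each list up to 4 expressed genes furthest from 0 in either direction, a fixed set of relatives, and other genes only where said. Alternatives were median centring, loess (span 0.4, 3 iterations), quantile normalization, an offset of 32 on the linear scale, no filter, a floor at the 99th percentile, the mean over probe sets, thresholds of 1.5-fold and 4-fold, and values raised to the floor. The comparison was run on simulated data with known shifts and with the mean of each gene kept above the floor. This run checked the calculation only, and genes with a mean near the floor were not covered. Python 3.11.15, pandas 2.3.3 and statsmodels 0.14.6 were used.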

Additional observations from a re-analysis of the deposited data

How the results depend on the processing

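The 9 differences stayed below 0 under the 4 scalings that change all of them (centring, loess, quantile and offset, 36 of 36 values), and 8 of the 9 genes were at least 2-fold lower in each. By the 4-fold threshold 7 genes were lower and by the 1.5-fold threshold 9, with 0 higher in both. P4ha1, nearest to the 2-fold threshold, stayed past it in each, with median centring by only 0.00176 on the log2 scale, and P4hb ran from -0.86 to -0.82. A value was taken as moved when it shifted by more than 0.37, the SD of the receptor genes' differences, since there were no replicates. With the offset of 32 on the linear scale, which draws low values together by its construction, the median of the 9 genes was -3.23, that of procollagen processing genes -2.10 and that of pericyte and smooth muscle markers -1.98, and P4ha3 and Fkbp14 were at -3.23 and -3.78. Under the stricter floor, which left fewer genes, the keratinocyte median was -1.12. Counts of all expressed genes were 2765 lower and 2585 higher at 1.5-fold, and 788 lower and 415 higher at 4-fold. The median of all expressed genes ran from -0.04 under loess to 0.11 with no filter, and that of other FKBP genes was positive only with no filter (0.10). In all, 238 of 248 values stayed within that limit (counts within 1.5 times), 10 moved beyond it and 0 differences of at least 2-fold reversed. The other settings leave the 9 differences as deposited by construction, except that raising values to the floor changes P4ha3. No paired analysis was possible because each group had 1 array and no test was made. Signal over background limits P4ha3, and to a lesser degree Fkbp14, in B-Gal positive cells.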

Other observations

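Genes induced by low oxygen, a group that in other cell types includes P4ha1 and P4ha2, were mostly within 2-fold. Of 15 listed genes, all expressed, 1 was higher and 1 lower by at least 2-fold in B-Gal positive cells, with a median of 0.21. Adm, which encodes the vasodilator peptide adrenomedullin, was 6.58-fold lower, with log2 values of 6.49 in B-Gal positive cells and 9.21 in B-Gal negative cells. Mxi1, a MAX-binding repressor gene, was 2.43-fold higher. Ndrg1 differed by -0.96 and the angiogenic growth factor gene Vegfa by 0.85.

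Identical values on both arrays were found for 614 of the 28853 probe sets (2.13%). Of these, 496 lay at or under the floor and 118 above it. None of the 9 hydroxylase and chaperone genes was among them (0 of 9).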
